A study of Mus musculus with 4 samples.

Results

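The 17 Gy array was compared with the 8.5 Gy array of a mouse radioiodine study, the 2 highest absorbed doses measured. A gene entered if the platform's annotation names it and at least 1 of its probes was detected, at a detection p below 0.01, on 1 or both arrays. This held for 8060 of the 16593 named genes on the array, through 10723 of 23978 named probes. All samples came from Balb/c mice, a common laboratory strain, are labelled thyroid and were taken at 24 h. The labels give absorbed doses of 8.5 Gy and 17 Gy, from the radioactive iodine isotope 131I, for the samples compared. Samples labelled 0 Gy and 0.85 Gy completed the series of 4. Total RNA was hybridised to 1 Illumina BeadChip a sample. The number of mice a sample is not given in the sources used here, and so is not known. The labels frame the study around absorbed dose, and the question here is how expression at 17 Gy differed from that at 8.5 Gy, with 1 array a side.

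With no replicates, no difference below has a replicate check, a test or a p-value. Differences are log2 of the normalized 17 Gy value minus log2 of the normalized 8.5 Gy value, so a positive number means higher at 17 Gy. A gene detected on only 1 array has a fold written as "at least", set against the lowest detected signal of the other array, where it was not well above background. Intensities are the deposited raw values. In tissue RNA, fewer cells of a type and less RNA per cell cannot be told apart.

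The label of the tissue was set against its markers first. Of 22 thyrocyte genes with a probe, 7 were detected at 8.5 Gy and 8 at 17 Gy. The gene of thyroglobulin, Tg, stood at 92 at 8.5 Gy and 86 at 17 Gy and was undetected, as were the iodide transporter Slc5a5 and Pax8, Nkx2-1 and Foxe1, which specify the follicular lineage. On both arrays 17 of 20 brown fat genes with a probe were detected, whereas the 3 parathyroid genes and the 14 cartilage genes with a probe all stayed undetected. These samples are therefore called by the doses of their labels, and nothing below is a value of thyrocytes. Whether the sampled cells received those doses is not known from the sources used here. Detected probes numbered 10455 at 8.5 Gy and 10500 at 17 Gy, and the median intensities were 105 and 95.

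Thyroid tissue takes up iodide through Slc5a5, and radioiodine held there irradiates the gland and its surroundings. The mouse thyroid lies against strap muscles of the neck, near the salivary glands and in fat that can include brown fat. Fast skeletal muscle fibres carry their own isoforms of the contractile filaments, calcium pump and energy enzymes. Salivary glands secrete small proteins of the secretoglobin, kallikrein and mucin families. Interferon-responsive genes act in antiviral defence and antigen presentation.

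Of the 8060 genes, 6.1% were at least 2-fold apart. In all 279 were at least 2-fold higher at 17 Gy, which is 3.46% of those compared, and 213 were at least 2-fold lower, which is 2.64%. The largest differences lay on the lower side and in skeletal muscle genes. By normalized values, bounds aside, 44 genes were at least 8-fold lower and 29 of them belong to the muscle lists, against 15 genes at least 8-fold higher. At least 100-fold lower were 14 genes, 13 of them in the muscle lists, and 3 were at least 100-fold higher. The balance of directions depended on the processing, the detection filter and the threshold. Of the calls, 56.7% were higher in the main values, 45.9% without background correction (79 higher and 93 lower) and 47.1% in the authors' normalized values (89 higher and 100 lower). The share was 66.6% with detection on both arrays (197 higher and 99 lower) and 37.3% at 3-fold (60 higher and 101 lower). Outside the muscle, cardiac, salivary and kallikrein lists, 268 genes were 2-fold higher and 164 lower. The lists do not hold every muscle gene: the 164 include Rpl3l, of striated muscle, and Pdlim3, of the Z-disc.

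The bulk of genes lay close to equality. The median difference over all genes was 0.05, the 5th percentile -0.76 and the 95th percentile 0.87. Pearson's r across genes between the arrays was 0.948, and 0.968 without the other-tissue lists, where genes are not independent replicates. Of the 279 higher genes, 196 were detected on both arrays and 83 at 17 Gy only. Of the 213 lower genes, 98 were detected on both arrays and 115 at 8.5 Gy only. With each of these one-sided genes at its bound, 231 genes were 2-fold higher and 168 lower. Different probes of the same gene gave a measure of disagreement between probes: over 2663 probe pairs, the robust SD of a single probe's difference was 0.34. Both probes of a pair were read on the same arrays, so this value leaves out variation between samples and between hybridisations. Another compared probe existed for 57 higher genes, and in 53 of these all other probes had the same sign, while in 20 all passed 2-fold. Among the lower genes these counts were 51, 44 and 24.

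**Figure D1:**
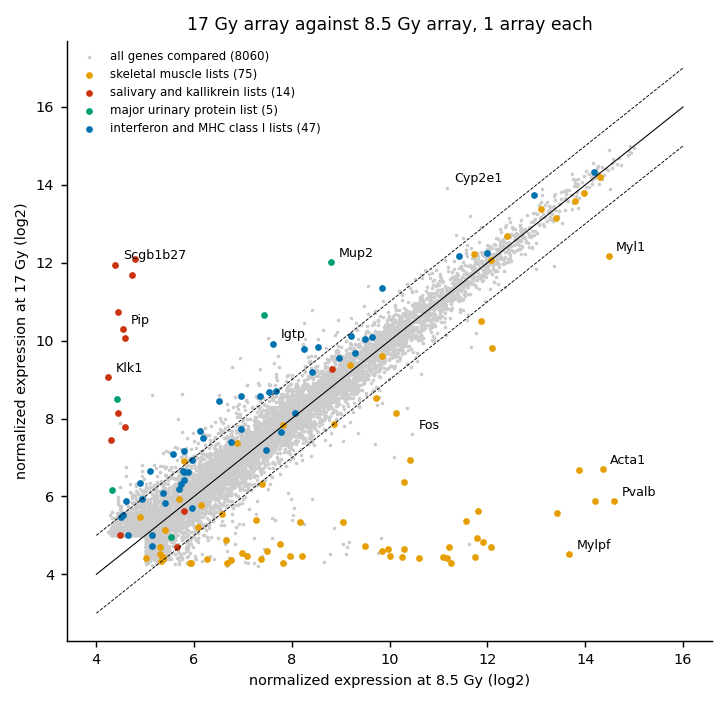
Normalized log2 expression of each gene at 8.5 Gy (x axis) and 17 Gy (y axis), with equality as a solid line and 2-fold differences dashed. Many skeletal muscle genes lie far below the line, such as Pvalb (418-fold), and some salivary and kallikrein genes far above it, such as Scgb2b27 (at least 134-fold).

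Many skeletal muscle genes were far lower at 17 Gy than at 8.5 Gy. Over the 5 muscle lists 75 genes were measured, and 49 were at least 2-fold lower and 1 at least 2-fold higher. Their median difference was -2.32 (-1.97 with genes at their bounds), beside 0.05 over all genes, and 65 of the 75 were negative. For 37 of them the 17 Gy signal was not well above background, so they passed the detection filter only through 8.5 Gy. The median was -1.03 over all 97 list genes with a probe and -1.06 over those detected on both arrays. The lists' share of the summed intensity of all probes was 4.18% at 8.5 Gy and 1.38% at 17 Gy, with 1.44% at 0 Gy and 1.48% at 0.85 Gy. The energy supply list, some of whose genes brown fat also expresses, alone held 1.72%, 1.19%, 1.26% and 1.31% in that array order. That list was thus most of the share on every array except that at 8.5 Gy. The thin filament list held 0.988% at 8.5 Gy and 0.0343% at 17 Gy. It was thus the 8.5 Gy array that was high, and the 17 Gy array stood with the other arrays. Of the 75 genes, 63 had both the 0 and the 0.85 Gy values nearer to the 17 Gy value than to the 8.5 Gy value.

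Among thin filament genes, 9 of 12 measured were 2-fold lower and 1 was higher, with a median of -5.22 (-5.06 with bounds). Of the 12, 5 passed the detection filter only through 8.5 Gy, so the filter largely set their direction. The median was -3.91 over all 13 list genes with a probe. Acta1, the actin of skeletal muscle, read 84 at 0 Gy, 102 at 0.85 Gy, 23880 at 8.5 Gy and 172 at 17 Gy. Only the 8.5 Gy array was high, and the gap to 17 Gy was 203-fold. Tnnc2, the calcium-binding troponin C of fast fibres, read 96, 93, 21104 and 130 in the same order, a 321-fold gap. For Tnni2, the inhibitory troponin of fast fibres, the readings were 85, 98, 12323 and 119, a difference of -7.86. Both thus had the 8.5 Gy array far above the others. Tnnt3, the fast troponin T, was at least 120-fold lower at 17 Gy. The tropomyosin gene Tpm2 was at least 109-fold lower by its brightest probe, with differences of -1.48 and -1.06 at its other probes. Actn3, the alpha-actinin of fast fibres, was at least 73.9-fold lower (-4.23 and -5.43 at its other probes), and Tmod4, which caps thin filaments, was at -3.91 (-4.01 and -3.82 at its other probes). The slow-fibre member Tnnt1 went the other way at 1.12, with readings of 139 at 8.5 Gy and 190 at 17 Gy. Tnnc1, the troponin C of slow and cardiac muscle, was at 0.23.

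All 12 thick filament genes measured were negative and 11 were at least 2-fold lower, with a median of -4.48 (-4.26 with bounds). Of the 12, 9 passed the detection filter only through 8.5 Gy, so the filter largely set their direction. The median was -2.90 over all 19 list genes with a probe. Mylpf, the regulatory light chain of fast myosin, had readings of 95, 106, 14703 and 93 from 0 to 17 Gy. Its signal was not well above background at 17 Gy and at least 405-fold lower than at 8.5 Gy. Myh4, the myosin heavy chain of the fastest fibres, was at least 71.6-fold lower, and Myh1, of another fast fibre type, at least 9.11-fold. Mybpc2, a myosin-binding protein of fast fibres, was at least 75.6-fold lower. The giant spring protein gene Ttn was at least 67.7-fold lower. Of the genes that anchor filaments at the Z-disc, Tcap was at least 38.9-fold and Myoz1 at least 28.3-fold lower. Myl1, a fast light chain, was detected on every array, with 3566 at 0 Gy, 5005 at 0.85 Gy, 24875 at 8.5 Gy and 4032 at 17 Gy. It was at -2.32. Myl3, the light chain of slow and cardiac muscle, was at -0.26 and the smallest difference of the list.

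**Figure D2:**
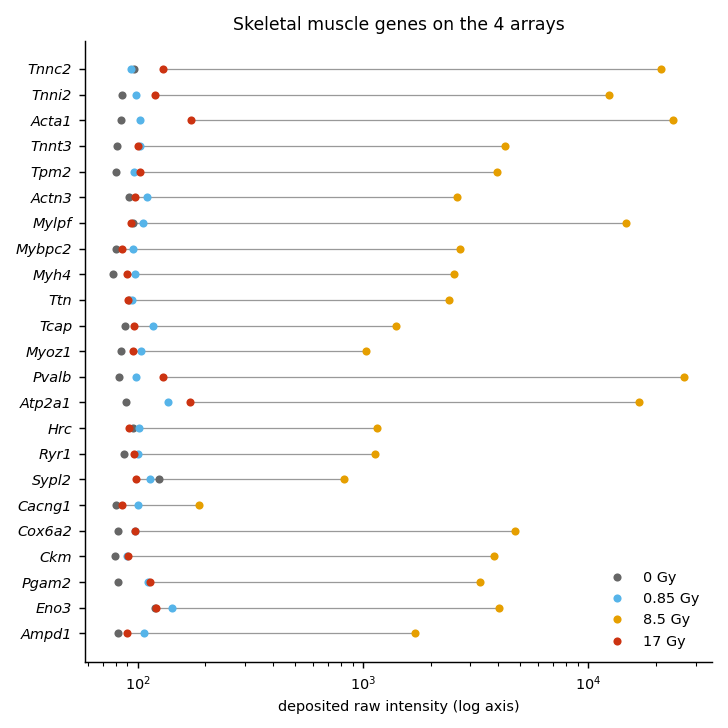
Deposited raw intensity (log axis) of 23 skeletal muscle genes, those most negative in 4 muscle lists, with 1 point an array and a line joining the 8.5 and 17 Gy arrays. The 8.5 Gy points reach 26621 for Pvalb while those of the other arrays stay near 100.

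Of 12 calcium handling genes, 8 were 2-fold lower at 17 Gy and the median was -2.38 (-1.70 with bounds). Pvalb, a calcium buffer of fast fibres, read 83, 98, 26621 and 130 from 0 to 17 Gy, a 418-fold gap. Atp2a1, the calcium pump of the fast-fibre reticulum, read 89, 136, 16859 and 171, a 145-fold gap. For both, the 17 Gy reading was detected and above that at 0 Gy, yet far nearer to it than to 8.5 Gy. The calcium release channel gene Ryr1 was at least 31-fold lower, with -0.71, -4.52 and -3.74 at its other probes. Hrc, a calcium-binding protein of the reticulum, was at least 31.7-fold lower and Sypl2, a protein of the triad junction, at least 22.2-fold. Casq1, the calcium store of the reticulum, had readings of 191 at 8.5 Gy and 88 at 17 Gy, at least 3.32-fold.

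The energy supply list split into genes restricted to muscle and genes that other tissues also use. Of its 23 measured members, 11 were 2-fold lower, and the median was -0.999, that of Ak1. Only through 8.5 Gy did 7 of the 23 pass the detection filter. Cox6a2, the muscle isoform of a cytochrome oxidase subunit, was at least 132-fold lower, with 4745 at 8.5 Gy and 97 at 17 Gy. Ckm, the cytosolic creatine kinase of muscle, was at least 106-fold lower, and Ckmt2, its mitochondrial relative, at least 37.9-fold (-5.57 at its other probe). Ampd1, the muscle AMP deaminase, was at least 47.7-fold lower (-5.01 at its other probe). The glycolytic muscle isoforms Pgam2 and Eno3 were 73.5-fold and 72.4-fold lower. Mb, the oxygen store myoglobin, was at -3.48 (-1.83 at its other probe), Pfkm, the muscle phosphofructokinase, at -1.36 (-1.95 and -1.47) and Ak1, an adenylate kinase, at -0.999. By contrast, Cox7a1 and Cox8b, subunit isoforms that brown fat also expresses, were at -0.17 and -0.12. Fabp3 was at 0.28 and Pkm at 0.29.

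In the list of muscle regulation and structural support, 11 of 17 were 2-fold lower, with a median of -1.61 (-1.08 with bounds). Of the 17, 9 passed the detection filter only through 8.5 Gy and 1 only through 17 Gy. The median was -0.91 over all 27 list genes with a probe. Cryab, a small heat shock protein, was at -2.82, Hspb6, another, at -2.29 and Des, the intermediate filament of muscle, at -1.98. Ankrd23 was at least 4.18-fold lower and Trim54 at least 3.93-fold. Fbxo32, a ubiquitin ligase of muscle, was at -1.86 (-0.74 and -1.07 at its other probes). Both cardiac list genes measured were within 2-fold, Actc1 at -0.86 and Myl4 at -0.25.

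Several genes outside the lists were also far lower at 17 Gy. Rpl3l, a ribosomal protein paralog of striated muscle, was at least 97.6-fold lower at 17 Gy, with 3481 at 8.5 Gy. Eef1a2, an elongation factor of muscle and neurons, was at least 27-fold lower (-1.43 and -5.28 at its other probes), Asb2, a ubiquitin ligase adaptor, at least 27.9-fold, and Trim72, of membrane repair, at least 16.2-fold. Bounds of 17.1, 17.2, 17.8 and 13.6-fold applied to Rbfox1, Ddit4l, Mlf1 and Ky, and the other probes of Rbfox1 and Mlf1 were at -1.17 and -1.78. Each of these 8 genes was detected at 8.5 Gy and not at 17 Gy. Pdlim3, of the Z-disc, was at -3.08 with -2.78 at its other probe, Rtn2 at -3.68 and Pkia at -3.66. Ncan, a proteoglycan best known from brain, was at -2.96 and had readings of 153, 215, 389 and 111.

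The 3 promoters below are shown because their genes had some of the largest differences of the comparison. They are the 250 bases before the RefSeq start in build GRCm38.p6, 5′ to 3′ on the gene's strand. Capitals mark each E-box (CANNTG, the motif of myogenic bHLH factors) and each CArG box (the motif of serum response factor), searched on both strands.
Mylpf, chr7:127211358-127211607, plus strand: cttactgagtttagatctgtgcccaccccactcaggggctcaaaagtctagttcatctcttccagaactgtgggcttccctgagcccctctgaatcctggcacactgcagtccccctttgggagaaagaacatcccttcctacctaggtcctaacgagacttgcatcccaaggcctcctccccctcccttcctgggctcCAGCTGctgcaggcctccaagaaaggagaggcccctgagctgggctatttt
Tnnc2, chr2:164779735-164779984, minus strand: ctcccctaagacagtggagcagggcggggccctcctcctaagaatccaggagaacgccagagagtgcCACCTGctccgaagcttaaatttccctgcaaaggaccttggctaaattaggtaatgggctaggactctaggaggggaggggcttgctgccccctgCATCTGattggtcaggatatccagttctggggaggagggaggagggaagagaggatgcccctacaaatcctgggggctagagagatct
Acta1, chr8:123894776-123895025, minus strand: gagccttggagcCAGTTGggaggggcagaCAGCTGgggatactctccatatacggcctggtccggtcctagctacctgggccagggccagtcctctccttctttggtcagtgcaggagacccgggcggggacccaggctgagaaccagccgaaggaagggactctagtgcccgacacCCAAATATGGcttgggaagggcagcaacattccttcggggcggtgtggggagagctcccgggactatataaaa
The Mylpf window held 1 E-box, the Tnnc2 window 2, and the Acta1 window 2 with 1 CArG box. Of the 49 muscle genes at least 2-fold lower at 17 Gy, 36 had a promoter in the table, and 30 of these (83.3%) held an E-box, against 57.5% of the 6560 promoters of all genes compared. A CArG box was found in 4 of the 36 (11.1%, against 1.25%) and a MEF2 motif in 5 (13.9%, against 1.60%). Over all 27025 promoters the shares were 66% for the E-box, 1.4% for the CArG box and 3.01% for the MEF2 motif. The lists were made of muscle genes, so these shares describe the lists more than the difference. A match is a description of the letters and not a binding site.

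Among the genes with the largest differences on the higher side, several encode secreted salivary proteins. Of 9 measured genes of the salivary list, 7 were at least 2-fold higher and 0 lower, and the median was 5.75 (5.28 with bounds). All 7 passed the detection filter only through 17 Gy, so the count and the median describe genes that had to differ. The median was 0.051 over all 34 list genes with a probe, and 0.44 with detection on both arrays, where Amy1 alone was left. Here the 17 Gy array was the one apart: all 7 had the 0 and 0.85 Gy values nearer to 8.5 Gy. The list's share of the summed intensity was 0.253% at 17 Gy, 0.0194% at 8.5 Gy, 0.0185% at 0.85 Gy and 0.0274% at 0 Gy.

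Scgb1b27, a secretoglobin of the androgen-binding protein family, had readings of 89, 96, 98 and 3482 from 0 to 17 Gy, at least 123-fold higher at 17 Gy. Its relatives Scgb2b27 and Scgb2b26 were at least 134-fold and 101-fold higher, with 3858 and 2941 at 17 Gy. Secretoglobin probes may cross-detect close paralogs, which makes the exact member uncertain. Prol1, a proline-rich secreted protein, was at least 52.4-fold higher, with a difference of 6.0 at its other probe. Pip, which salivary and lacrimal glands secrete, had readings of 88, 93, 103 and 1241 and was at least 38.9-fold higher. The mucin-like Mucl2 was at least 33.1-fold higher, and Smgc, of the submandibular gland, at least 8.75-fold (1.58 at its other probe). Neither remaining member passed 2-fold. Amy1, salivary amylase, was at 0.44 and had its highest reading, 875, at 0 Gy, and Egf was at least 1.55-fold lower. Genes of epithelial and gland structure were mostly undetected: 4 of 28 with a probe were measured, each detected on 1 array only. Cldn10 was at least 1.96-fold and Elf3 at least 1.12-fold higher, and Krt8 was at least 1.12-fold and Ltf at least 1.86-fold lower.

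The tissue kallikreins, serine proteases of the salivary glands and kidney, had 5 measured members, of which 3 were 2-fold higher and 0 lower. Klk1 had readings of 89 at 8.5 Gy and 571 at 17 Gy, at least 16.5-fold. Klk1b5 was at least 6.82-fold higher and Klk1b27 at least 5.39-fold, and both share near-identical copies in the cluster. Klk1b22 was also detected at 17 Gy only, but its bound gave no difference, and Klk8 was at -0.16. The list median was 3.15 (2.43 with bounds), but 4 of the 5 genes passed the filter only through 17 Gy. Over all 21 list genes with a probe the median was 0.043, with detection p under 0.05 it was 0.58, and with detection on both arrays, which left only Klk8, it was -0.16.
The promoter of Pip is shown as that of a gene detected only at 17 Gy, again 250 bases before the RefSeq start in GRCm38.p6, with TATAAA in capitals on either strand.
Pip, chr6:41847299-41847548, plus strand: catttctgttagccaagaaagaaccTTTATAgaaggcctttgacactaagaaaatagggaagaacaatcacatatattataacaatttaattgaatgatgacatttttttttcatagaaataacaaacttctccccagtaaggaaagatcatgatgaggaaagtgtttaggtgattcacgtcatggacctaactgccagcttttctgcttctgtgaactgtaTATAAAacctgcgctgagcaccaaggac
Its matches began at bases -225 and -28 from the start. The window of Scgb1b27, also detected only at 17 Gy and with a larger difference, held 0 matches. Of the 7 promoters of salivary genes at least 2-fold higher, 3 (42.9%) held TATAAA, against 6.98% of the promoters of all genes compared. Over all 27025 promoters the share was 13%. The list was made of salivary genes, so the share describes the list more than the difference.

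**Figure D3:**
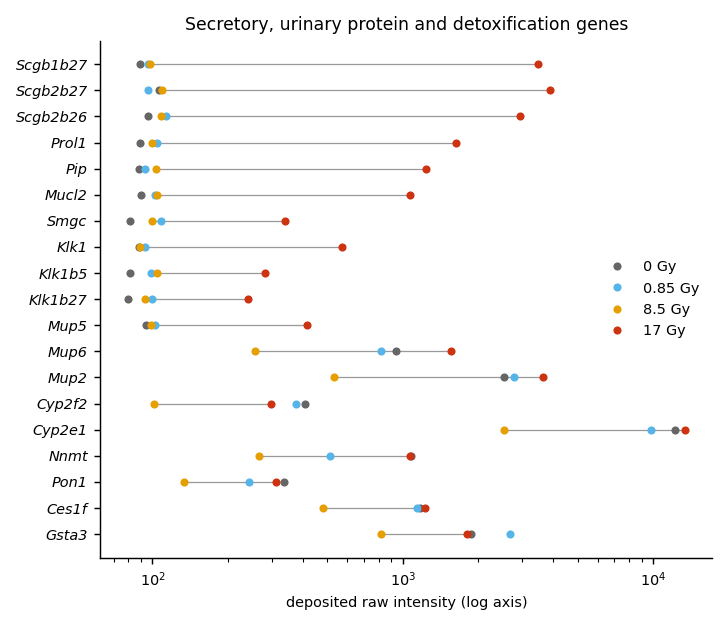
Deposited raw intensity (log axis) of 19 salivary, kallikrein, major urinary protein and detoxification genes, with 1 point an array. In the salivary and kallikrein genes the 17 Gy point stands alone on the right, and in Cyp2e1, Pon1 and Ces1f the 8.5 Gy point stands alone on the left.

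Major urinary proteins, lipocalins that carry pheromones, and detoxification enzymes were higher at 17 Gy in another way. Of 5 measured urinary protein genes, 4 were 2-fold higher. Mup2 had readings of 2544, 2771, 531 and 3624 from 0 to 17 Gy, a 9.25-fold gap, with a difference of 2.27 at its other probe. Mup6 had 938, 817, 258 and 1564, a 9.26-fold gap. In both the 8.5 Gy array was the low one. Mup5 followed the salivary genes instead, with 94, 102, 99 and 415, and was at least 11.2-fold higher (2.93 at its other probe), and Mup20 was at least 2.22-fold higher. Close paralogs make the exact member behind each Mup signal uncertain.

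Of 22 measured detoxification genes, 7 were 2-fold higher and 1 lower, with a median of 0.49. Cyp2e1, which oxidises ethanol and small solvents, had readings of 12227, 9853, 2528 and 13365, a 6.74-fold gap. Cyp2f2, a cytochrome best known from lung, was at least 7.34-fold higher at 17 Gy and was undetected at 8.5 Gy only. Nnmt, which methylates nicotinamide, had 1082, 514, 267 and 1064, a difference of 2.54 (1.73 at its other probe). The paraoxonase gene Pon1 was at 2.31 and the carboxylesterase gene Ces1f at 1.65. Each of these had its lowest reading at 8.5 Gy. The glutathione transferase gene Gsta3 was at 1.41, with 0.12 at its other probe, Fmo5 at 1.28 and the retinaldehyde dehydrogenase gene Aldh1a1 at -1.21. The abundant Ces1d, Fmo1 and Mgst1 were within 2-fold at 0.55, 0.18 and 0.42.

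Of 30 measured interferon-responsive genes, 11 were at least 2-fold higher and 0 lower, 28 were positive, and the median was 0.83 (0.77 with bounds). Igtp, a GTPase of defence against intracellular pathogens, had readings of 575, 700, 281 and 968 from 0 to 17 Gy, a 4.95-fold gap. Ifit3, which acts in antiviral defence, was at 1.94, with 454, 311, 175 and 400, but its other probes gave 0.51 and 0.00. In both genes the 8.5 Gy reading was the lowest. Oasl2 was at 1.61 (0.19 at its other probe), Bst2, the tetherin that holds virus at the cell surface, at 1.57, and Usp18, which removes ISG15 and restrains interferon signalling, at 1.56 (0.97 and 0.25). The GTPase genes Gbp7 and Irgm2 were at 1.35 and 1.30, the nucleotide hydrolase gene Samhd1 at 1.31 and Parp14 at 1.23. Among the abundant members, Ifi27 was at 0.16, Irgm1 at 0.26 and Ifitm3 at 0.76. Of the 30 genes, 20 had the 0 and 0.85 Gy values both nearer to 17 Gy. The low 8.5 Gy array is the one on which the muscle lists held 4.18% of the summed intensity, and the part of muscle RNA in this result was not tested. With the probes of muscle, cardiac, salivary and kallikrein genes kept out of the normalization, a setting chosen after seeing the data, the interferon median was 0.81. That setting changes the normalization only and does not remove muscle RNA from the 8.5 Gy sample, so it cannot show the part of that RNA.

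The promoters of Igtp and Ifit3 are shown as those of the interferon list's largest differences, in the same window and build, with the interferon-stimulated response element (searched on both strands) in capitals.
Igtp, chr11:58199306-58199555, plus strand: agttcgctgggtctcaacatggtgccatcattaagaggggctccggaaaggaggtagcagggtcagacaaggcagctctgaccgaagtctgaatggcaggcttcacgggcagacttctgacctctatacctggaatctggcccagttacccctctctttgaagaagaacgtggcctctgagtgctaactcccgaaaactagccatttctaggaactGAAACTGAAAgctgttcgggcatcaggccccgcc
Ifit3, chr19:34583279-34583528, plus strand: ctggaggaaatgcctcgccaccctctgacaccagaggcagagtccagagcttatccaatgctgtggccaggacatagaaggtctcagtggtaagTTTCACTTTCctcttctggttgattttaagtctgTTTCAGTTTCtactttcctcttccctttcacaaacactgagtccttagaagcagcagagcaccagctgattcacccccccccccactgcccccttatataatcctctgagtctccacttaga
The Igtp element began at base -34 and those of Ifit3 at -156 and -122. The motif was found in 11 of the 22 promoters of measured interferon genes (50%) and in 5 of the 9 of those at least 2-fold higher (55.6%), against 2.67% of the promoters of all genes compared. The list was drawn up from genes known to respond to interferon, so the share describes the list more than the difference.

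Of 17 measured genes of MHC class I and its peptide loading, 5 were 2-fold higher and 0 lower, with a median of 0.79. H2-T23, a nonclassical class I molecule, had readings of 1805, 2816, 1040 and 2410, a difference of 1.49 (1.36 at its other probe). H2-Q7 was at 1.56 and H2-D1, a classical molecule, at 1.15. Class I genes are near-identical in parts, so a probe of one member can carry another's signal. Nlrc5, the transactivator of class I genes, was at 1.52, the immunoproteasome gene Psmb8 at least 2.52-fold higher and Tap1, which transports peptides, at least 1.89-fold. B2m, the light chain, was at 0.79, with 8847 at 8.5 Gy and 11642 at 17 Gy.

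MHC class II genes had a different array apart. Of 9 measured, 3 were 2-fold higher and 0 lower, with a median of 0.93, and for 8 of them the 0 and 0.85 Gy values were both nearer to 8.5 Gy. H2-Ab1, a class II beta chain, had readings of 1256, 1410, 1309 and 2293, a difference of 1.08 (0.56 and 0.98 at its other probes). For the alpha chain gene H2-Ea they were 1812, 1344, 1756 and 2962, at 1.04. The 17 Gy array was thus the high one. Cd74, the invariant chain, was at 0.94 (1.29), H2-Eb1 at 1.0 and H2-DMb1 at 0.93, while the lysosomal protease Ctss was at -0.45. The 17 Gy array is also the one with the salivary transcripts, whose part in this result was not tested.

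Macrophage genes were positive in 21 of 22 measured members, and 10 were at least 2-fold higher and 0 lower, with a median of 0.94 (0.86 with bounds). Lgals3, the galectin of phagocytes, had readings of 436, 892, 388 and 1371, a difference of 2.21. Mrc1, the mannose receptor, had 246, 247, 198 and 427, a difference of 1.71. The 17 Gy reading was the highest in both. Cd163, the scavenger receptor for haemoglobin, was at 1.45, the complement genes C1qb and C1qc at 1.38 and 1.32 and the lectin gene Clec10a at 1.33. Adgre1, which encodes the F4/80 antigen, was at 0.73 and the exception Marco at least 1.06-fold lower. Without background correction the median was 0.50.

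Other blood cell lists were small. Mast cell genes were positive in all 5 measured, 3 of them 2-fold higher, with Cpa3, a mast cell protease, at 1.64 (1.27 at its other probe) and the chymase gene Cma1 at least 1.93-fold. Of the 5, 2 passed the detection filter only through 17 Gy. The median was 1.13 over the 5 and 0.25 over all 12 list genes with a probe. Lymphocyte genes were positive in all 7 measured, 2 of them 2-fold higher, with Prf1, a pore-forming protein of cytotoxic cells, at 0.46. Of the 7, 4 passed the detection filter only through 17 Gy, and both 2-fold genes were among these. The filter thus largely set their direction. The median was 0.72 over the 7 and 0.18 over all 29 list genes with a probe. The natural killer cell genes Klrd1 and Nkg7 were at least 1.86-fold and 1.76-fold higher. Neutrophil genes went the other way in 4 of 6, S100a9 at -0.43 and S100a8 at -0.23. Of the 6, 0 were 2-fold higher and 1 was 2-fold lower by its normalized value, Ltf, whose bound was 1.86-fold. Erythrocyte genes were negative in 6 of 7 and 0 passed 2-fold, with the haem synthesis gene Alas2 at -0.97 and Hba-a1 at -0.61.

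Among secreted immune proteins, 5 of 18 chemokine genes were 2-fold higher and 0 lower, with a median of 0.46. Ccl8, which attracts monocytes, had readings of 206, 197, 137 and 446, a 7.34-fold gap. Ccl9 had 361, 201, 194 and 668, a 5.77-fold gap. The 17 Gy array was the highest for both. Ccl27a, a skin-homing chemokine, was at 1.43 (0.68 at its other probe), Ccl7 at least 2.22-fold higher and Cxcl9, induced by interferon gamma, at 1.04. Of 13 complement and acute phase genes, 4 were 2-fold higher and 0 lower, with a median of 0.63. C2 was at 1.90, C4b at 1.78, the factor B gene Cfb at 1.68 and the protease inhibitor gene Serpina3n at 1.09. All 4 had their lowest reading at 8.5 Gy, such as C2 with 698, 685, 294 and 804.

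**Figure D4:**
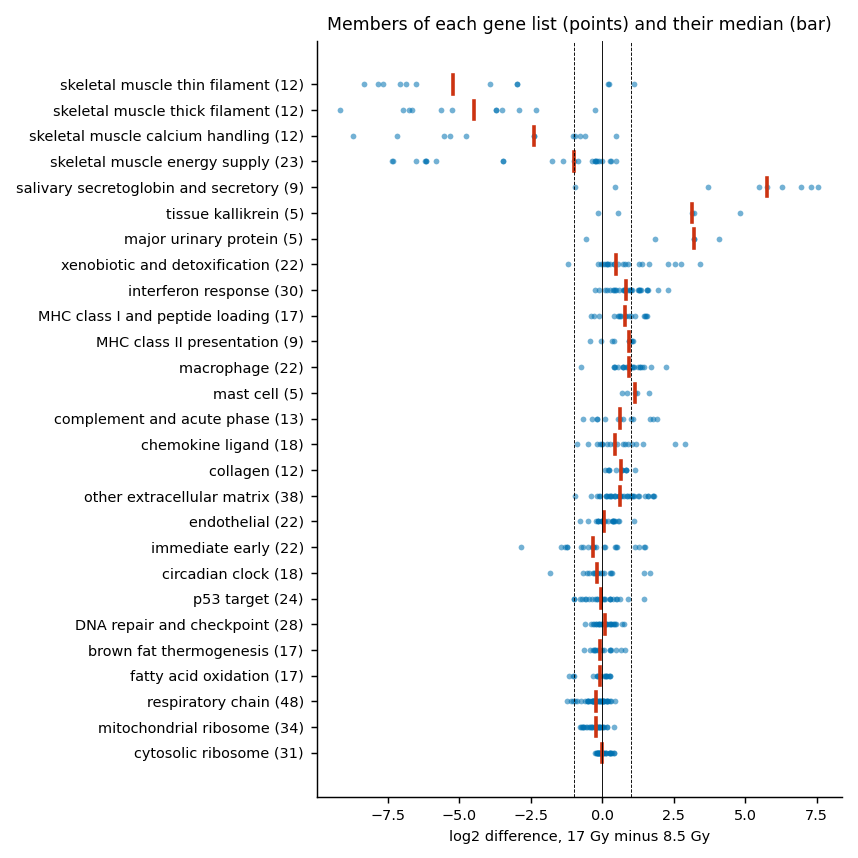
Log2 difference between 17 and 8.5 Gy (x axis) of the measured members (points) of 27 gene lists, with the median as a bar and 2-fold lines dashed. Numbers in parentheses are the genes measured. The muscle filament lists lie near -5, the salivary list at 5.75, the immune and matrix lists between 0.46 and 1.13, and the ribosomal, repair and thermogenic lists near 0.

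All 12 measured collagen genes were positive, 1 of them 2-fold, with a median of 0.66 (0.57 with bounds). Col18a1, a basement membrane collagen, was at 1.14, and Col1a1 and Col3a1, of fibrillar collagens, were at 0.84 and 0.81. Of 38 other matrix genes, 12 were 2-fold higher and 0 lower, with a median of 0.61. Dpt, a dermatopontin that binds decorin, had readings of 391, 261, 218 and 512, a difference of 1.79. Spon2 had 1081, 279, 284 and 704, a difference of 1.78, and Lum, a proteoglycan of collagen fibrils, 930, 293, 297 and 675, a difference of 1.60. In all 3 the 0 and 17 Gy arrays stood above the other arrays. The matrix proteases Mmp3, Mmp2 and Mmp14 were at 1.76 (0.53 at its other probe), 1.58 and 1.26, and the basement membrane gene Nid1 was at 1.48. Prelp went the other way at -0.95, with its highest reading, 4393, at 8.5 Gy. Fibroblast genes had 2 of 15 at least 2-fold higher and a median of 0.57, with Pdpn at 1.36 and Pdgfra at 0.93.

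Vessel genes differed less. The median of 22 endothelial genes was 0.08, with 1 of them 2-fold higher (4.55%, against 3.46% of all genes) and 0 lower (against 2.64%). That gene was Lyve1, of lymphatic vessels and some macrophages, at 1.10, while Cdh5, of endothelial junctions, was at -0.77 and Pecam1 at 0.59 (0.16 at its other probe). Of 9 smooth muscle genes, 2 were 2-fold higher, the smooth muscle myosin Myh11 at 1.48 and Tagln at least 1.42-fold by its bound, and 2 were lower. The lower members, Tpm2 and Des, are also expressed in skeletal muscle. Acta2 was at 0.93 and its other probes at 0.80, 0.97 and 0.94. Of 5 nerve genes, Gldn and S100b were 2-fold lower, by at least 2.0-fold and 1.67-fold.

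Thermogenic and adipocyte genes, which were abundant on both arrays, were close to equal. Of 17 brown fat genes 0 passed 2-fold in either direction, against 6.1% of all genes, and the median was -0.07. Ucp1, the uncoupling protein of brown fat, had readings of 8411, 10978, 16709 and 9249, a difference of -0.45. Cidec, of lipid droplets, was at 0.78, the fatty acid elongase gene Elovl3 at -0.64 and Ppargc1a, a coactivator of thermogenic genes, at 0.66. Of 23 adipocyte genes 1 was 2-fold higher, Slc7a10, which carries small amino acids in adipocytes, at 2.09 with 438 at 17 Gy and 175 at 8.5 Gy. The lower one was Acvr1c, an activin receptor of adipocytes, at least 4.64-fold, with 161, 123, 234 and 102. Adipoq was at 0.21 and Pparg at -0.51, although Pparg's other probes gave -1.24 and -0.99.

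Lipid synthesis lists held few differences. Of 19 genes of fatty acid synthesis 0 passed 2-fold in either direction, against 6.1% of all genes, with Elovl6 at 0.76 and Scd2 at -0.77. Of 13 cholesterol genes, Msmo1 was higher at 1.66 and Nsdhl lower at -1.28, with -1.14, -1.12 and 0.01 at Nsdhl's other probes. In fatty acid oxidation 3 of 17 were 2-fold lower: Acaa2, the last thiolase of the spiral, at -1.16 (between -1.0 and 0.03 at its other probes), Hadh at -1.03 (-0.22) and Acadl at -1.0 (-0.53 and -0.04). Respiratory chain subunits had 3 of 48 lower and 33 negative, with a median of -0.21, and the lowest were Cox7a2 at -1.22, Atp5g1 at -1.08 and Atp5k, whose bound was 1.33-fold. Mitochondrial ribosomal genes were negative in 29 of 34, with a median of -0.22 and 0 past 2-fold. Of the 4 glycolytic genes at least 2-fold lower, Pgam2, Eno3 and Pfkm are muscle isoforms and Pfkp, the platelet isoform, was at -1.05 (-1.30 at its other probe).

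Genes that respond within minutes to hormones or stimuli split in both directions. Of 22 immediate early genes, 4 were 2-fold higher, 5 lower, and the median was -0.32. Fos, a subunit of the AP-1 factor, had readings of 186, 1047, 1555 and 259, a difference of -2.86. Egr1, an early growth response factor, had 2342, 10912, 11776 and 3449, a difference of -1.43, and Junb, another AP-1 subunit, was at -1.23. Dusp2 and Maff were at least 1.96-fold and 1.83-fold lower. In the opposite direction stood Klf2, a factor of quiescence and flow, at 1.51, with 906, 264, 451 and 1042, Ccn2 at 1.45, Klf4 at 1.28 (0.71 and 0.93 at its other probes) and Arc at 1.14. For Fos, Egr1 and Klf2, the 0 Gy array stood with 17 Gy and the 0.85 Gy array with 8.5 Gy.

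Of 18 clock genes, 2 were 2-fold higher and 1 lower. Noct, a clock-controlled phosphatase, was at 1.68 (1.53 at its other probe) and the period gene Per1 at 1.46 (1.30), and Bhlhe40, a clock repressor, was at -1.84. Bhlhe40 had readings of 979, 4402, 3621 and 916, and Noct 1002, 180, 385 and 957, so that the 0 Gy array again stood with 17 Gy. The core gene Arntl was at least 1.06-fold lower, Per2 was at 0.35 (0.12 at its other probe) and Dbp, a clock output gene, at -0.20. Of 19 glucocorticoid-responsive genes, 3 were 2-fold higher, Per1, Ddit4 at 1.46 and Errfi1 at 1.06. Mfsd2a, a lipid transporter induced by fasting, had 1020, 99, 206 and 768, a 6.09-fold gap, and Igf1 was at 0.91.

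Grouping of the 4 arrays into pairs was counted over all compared genes. In 48 genes both the 0 and the 17 Gy values stood at least 2-fold above both the 0.85 and the 8.5 Gy values, and in 9 the reverse held. The 48 included Mfsd2a, Nnmt, Ccl9, Hspa1a, Fgf10, Dpt, Spon2, Lum, Klf2, Noct and Egfr. The 9 were Acaa2, Rgs16, Junb, Ltf, Egr1, Rtn4, Bhlhe40, Kng2 and Fos. The pair of higher doses stood above the lower pair in 8 genes, 5 of them muscle genes, Acta1, Atp2a1, Pvalb, Tnnc2 and Tnni2, and below it in 0 genes. A gene undetected at both 8.5 and 17 Gy was not compared, so these counts do not weigh the directions of dose evenly. The pair 0.85 and 17 Gy stood above the others in 3 genes and so did the pair 0 and 8.5 Gy. The raw arrays pair the same way: median intensity was 92 at 0 Gy and 95 at 17 Gy, and 108 at 0.85 Gy and 105 at 8.5 Gy. Whether this has a part in the counts was not tested.

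**Figure D5:**
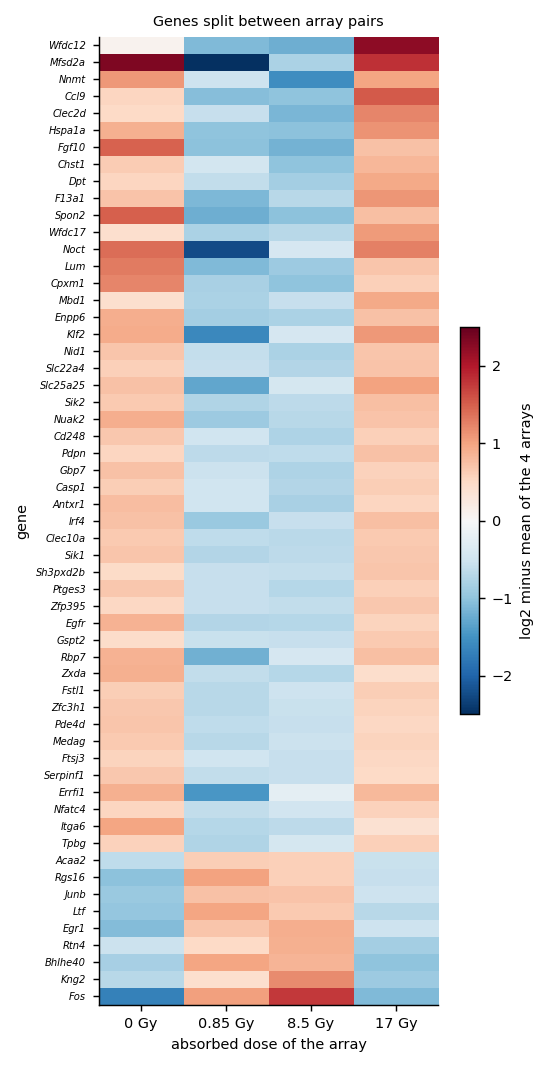
Normalized log2 expression, less the mean of the 4 arrays, of the 57 genes in which the 0 and 17 Gy arrays lay at least 2-fold above (48) or below (9) the 0.85 and 8.5 Gy arrays. Columns are arrays in order of dose and rows are genes, ordered by the difference between 17 and 8.5 Gy. Colours alternate as outer against inner columns, not from low to high dose.

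Single arrays also stood apart. The 8.5 Gy array was at least 2-fold above each of the other arrays in 118 of the 213 lower genes and at least 2-fold below each in 39 of the 279 higher genes. The 17 Gy array was above each of the others in 19 genes and below each in 2. Of the lower genes, 149 (70%) had the 0 and 0.85 Gy values both nearer to 17 Gy. Of the higher genes, 84 (30.1%) did, 46 (16.5%) had both nearer to 8.5 Gy, and 128 (45.9%) had 0 Gy nearer to 17 Gy and 0.85 Gy nearer to 8.5 Gy. Without the other-tissue lists, which do not hold every muscle gene, the share of lower genes with both nearer to 17 Gy was 61%. Wfdc12, a protease inhibitor of the whey acidic protein family, had the largest difference among higher genes detected on both arrays, with 149, 126, 118 and 440, an 11-fold gap. Clec2d, a ligand of a natural killer cell receptor, was at 2.37 with 1015, 669, 426 and 1695.

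Targets of p53, the factor activated by DNA damage, had a median near 0. Of 24 measured, 1 was 2-fold higher (4.17%, against 3.46% of all genes) and 0 lower (against 2.64%). The median was -0.03, and the higher gene was Ddit4, an inhibitor of mTOR signalling. Cdkn1a, the cell cycle inhibitor p21, had readings of 713, 494, 382 and 597, a difference of 0.91 (0.75 and 0.82 at its other probes). Its highest reading was at 0 Gy. Mdm2, which degrades p53, was at 0.10 (0.16 at its other probe) and the cyclin G gene Ccng1 at -0.61 (-0.47 and -0.50), with 2040 at 8.5 Gy and 1185 at 17 Gy. Gadd45a was just under 2-fold lower at -0.998 (-1.10 at its other probe). Of 28 DNA repair and checkpoint genes 0 passed 2-fold in either direction, against 6.1% of all genes. Their median was 0.09, with H2ax at 0.74 and Chek2 at -0.62 (-0.33 at its other probe). Of 11 proliferation genes, 1 was lower, Aurka, a mitotic kinase, at least 1.83-fold.

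Stress and housekeeping lists were near equality. Among 17 heat shock genes Hspa1a, the inducible HSP70, was at least 3.33-fold higher, with readings of 154, 109, 105 and 176, and Cryab was lower. Of 21 genes of the unfolded protein response, Chac1, a glutathione-degrading enzyme, was lower at -1.64. Antioxidant genes (22), proteasome subunits (28) and cytosolic ribosomal proteins (31) had 0 members past 2-fold, with medians of -0.03, -0.09 and 0.00. Of the thyrocyte list, 8 genes were measured and 1 was 2-fold higher, Ctsk, a lysosomal protease that bone and connective tissue also express, at 1.06. The thyrotropin receptor gene Tshr was at -0.22 by its brightest probe and 0.52 at the other.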

How the data were processed

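Each of the 4 samples gave 1 array. The deposited non-normalized table held, per the file headers, an intensity and a detection p-value for each of 26512 probes, and the authors' normalized table intensity values on the linear scale, used here as an alternative. How the authors' software treated the beads is not given in the sources used here. Background was estimated from the detection p-values and corrected by neqc of limma 3.58.1 (R 4.3.3), with an offset of 16, quantile normalization over the 4 arrays and log2. The platform's annotation named 23978 of the 25697 probes in the deposited value table, each with 1 gene. Python 3.11.15, numpy 2.4.6, pandas 2.3.3 and matplotlib 3.10.9 did the rest.

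Each gene was represented by its brightest detected probe, by mean raw intensity over the 4 arrays. For a bound, the dim array's value was raised to that array's lowest detected value where it lay under it. With 1 array a side nothing was tested, and the number of arrays limits the precision. The 53 gene lists had 1369 entries, of which 1202 matched a probe by symbol and 16 by synonym. Members and lists were chosen with earlier results of these data known. Genes named are the 15 largest differences in each direction and the 15 outside the other-tissue lists, if 2-fold apart and of the same direction in the authors' values, up to 8 genes of a muscle list and 6 of any other, and a set that includes Cdkn1a, Mdm2, Tg and Ucp1. Gene models without a descriptive symbol were passed over. Other list members named for a role were chosen after their values were seen. Promoters came from RefSeq (GRCm38.p6), 27025 of them. The procedure was run on simulated data with differences set in bright probes only, so recovery of differences in dim probes was not checked.

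Alternatives were no background correction, the authors' values, the 75th percentile, normalization of the pair alone, an offset of 50, detection p under 0.05, on both arrays or without a filter, the mean of all probes, thresholds of 1.5-fold and 3-fold, and, chosen after seeing the data, normalization without other-tissue probes.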

Additional observations from a re-analysis of the deposited data

How the results depend on the processing

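No paired analysis was possible because each dose had 1 array. Counts are given as higher then lower, first for all genes and then outside the other-tissue lists, then as genes with the 0 and 0.85 Gy values both nearer 17 Gy. Without background correction they were 79 and 93, 69 and 52, and 28 and 81. In the authors' values they were 89 and 100, 79 and 57, and 29 and 87. With an offset of 50 they were 129 and 118, 119 and 73, and 42 higher for the placement. Detection on both arrays left 99 lower genes, 79 outside the lists, and 59 for the placement. At 1.5-fold they were 1003 and 709, 991 and 649, and 302 and 316, and at 3-fold 60 and 101, 50 and 56, and 23 and 95. The other 36 counts lay within 1.5 times the main value.

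Among lists with a median of at least 0.5 in size, medians kept their sign in every setting, except that the kallikrein median was -0.16 with detection on both arrays, where 1 gene was left. Medians that moved by more than 0.34 follow. Without background correction, the 5 muscle lists pooled were at -1.14, thin filament -3.82, thick filament -2.84, calcium handling -1.0, muscle regulation -0.64, salivary 3.76, kallikrein 1.5, urinary protein 2.22, interferon 0.44, macrophage 0.50, lymphocyte 0.38, mast cell 0.43 and smooth muscle 0.20. In the authors' values, in that order as far as they moved, they were -1.28, -3.97, -3.08, -1.24, -0.80, 4.04, 1.77 and 2.52, with macrophage 0.57 and mast cell 0.58. With an offset of 50 they were -1.49, -4.40, -3.47, -1.36, -0.83, 4.49, 1.96 and 2.84, with mast cell 0.67. With detection on both arrays, pooled muscle was at -1.06, thin filament -2.69, thick filament -2.32, calcium handling -4.11, energy supply -0.25 and salivary 0.44. Without a detection filter, pooled muscle was at -1.03, thin filament -3.91, thick filament -2.90, calcium handling -1.0, regulation -0.91, salivary 0.051, kallikrein 0.043, MHC class II 0.34, lymphocyte 0.18, mast cell 0.25 and complement 0.22. With detection p under 0.05 the kallikrein median was 0.58. With the mean over all probes, thin filament was at -3.52 and urinary protein at 2.74. The salivary and kallikrein medians without a filter include the many list genes that were undetected on both arrays. For the other values that moved the cause was not tested. The limit of 0.34 is the robust SD of a single probe's difference, so a small median can lose much of its size within it. Without background correction, the lists not given above for that setting were also smaller in size. Energy supply was at -0.73, MHC class I 0.50, MHC class II 0.69 and collagen 0.35. Other matrix was at 0.43, fibroblast 0.37, complement 0.38 and erythrocyte -0.31.

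Scaling to the 75th percentile, normalizing the pair alone and leaving other-tissue probes out of the normalization moved none of these counts or medians beyond these limits. Low signal also limits the comparison: 1150 genes were detected on only 1 of the arrays, and the size of their differences rests on the background estimate.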

Other observations

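Probes without a gene name were left out of the comparison. Of 1719 such probes, 637 were detected on at least 1 of the 2 arrays, 22 were at least 2-fold higher at 17 Gy and 15 at least 2-fold lower. Another 815 probes of the non-normalized table are not in the value table, and 39 of these were detected on at least 1 of the 2 arrays.

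The labels do not give the sex of the mice. Xist, transcribed from the inactive X chromosome, had intensities of 134 and 161 at its probes at 8.5 Gy and of 131 and 158 at 17 Gy. Each of these was detected. The Y-linked Eif2s3y had 90 and 81, and Kdm5d 91 and 86, at 8.5 and 17 Gy, and both genes were undetected on both arrays. Uty, also Y-linked, had 115 at 8.5 Gy, where it was detected just under the threshold (detection p 0.0089), and 94 at 17 Gy, where it was not.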
